A study of Mus musculus with 18 samples.

Results

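The peroxiredoxins are a family of 6 mouse genes, *Prdx1* to *Prdx6*. They were taken by symbol from a bulk RNA-seq count table of 47729 Ensembl genes, and all 6 were found. The libraries came from retinal pigment epithelium (RPE) eyecups, with the neural retina removed, of *rd1* mice at postnatal day 40, as the labels name the strain of all 18; the study's methods count fewer *rd1* pairs at this age, and these together with the pairs they count for the wild-type CD1 strain come to the 9 pairs held here. Whether some pairs were wild type was not tested, and what follows uses the labels. In this FVB/N strain a *Pde6b* mutation destroys the rods early and the cones follow. Each of 9 mice was injected with AAV under the retina in both eyes. The Best1-Nrf2 eye received AAV Best1-Nrf2 with AAV Best1-GFP, and the fellow control eye received AAV Best1-GFP alone, so both groups carried the GFP vector. By the study's methods, the Best1-Nrf2 eye received a higher total vector dose. Its Nrf2 vector had another capsid than the GFP vector. Effects of Nrf2, dose and capsid can therefore not be told apart here. The Best1 promoter restricts expression to the RPE, and Nrf2 was supplied as a human cDNA. The comparison asked what delivery of a vector for the transcription factor Nrf2 changed in the RPE, by the labels of a degenerating eye. It rested on 9 libraries in each group, paired by mouse.

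Peroxiredoxins are thiol peroxidases. A reactive cysteine in the enzyme is oxidised by hydrogen peroxide, an organic hydroperoxide or peroxynitrite, and is then returned to its reduced form by thioredoxin or glutathione. Members differ in where they work: *Prdx1* and *Prdx2* encode mainly cytosolic enzymes, *Prdx3* a mitochondrial one, *Prdx4* one of the endoplasmic reticulum, and *Prdx5* one that is spread over mitochondria, peroxisomes and cytosol. *Prdx6* encodes the member that is reduced through glutathione with the help of glutathione S-transferase pi, and it also has phospholipase activity. Nrf2 is known as a regulator of antioxidant genes, which it reaches through a short DNA element. The RPE faces a high oxidative load from light, from the choroidal blood supply and from digestion of outer segments.

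The 6 genes lie on 5 chromosomes of the mouse genome (GRCm38). *Prdx1* is at chr4:116685544-116700822 on the plus strand, *Prdx2* at chr8:84969587-84974834 on the plus strand and *Prdx3* at chr19:60864051-60874556 on the minus strand. *Prdx4* is at chrX:155323918-155340754, *Prdx5* at chr19:6906697-6910106 and *Prdx6* at chr1:161240112-161251219, all on the minus strand. All are protein coding, with 5 to 7 exons in the longest coding transcript.

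The core of the element bound by Nrf2 was searched as TGACNNNGC on both strands of RefSeq promoter windows, 250 bases before to 50 bases after each start (GRCm38.p6). Of 32851 such windows, 4071 (12.4%) held it. Windows were given for 5 members, *Prdx1* to *Prdx5*, and the letters were found in that of *Prdx1* alone. No window was given for *Prdx6*, and that of *Prdx4* lay inside the annotated gene. A relation between the element and the response was not tested. The upstream stretches of *Prdx1* and of *Prdx2*, the other mainly cytosolic member, are shown because these genes differed in their response. Both run from 5′ to 3′ on the plus strand, at chr4:116685349-116685543 for *Prdx1* and chr8:84969372-84969586 for *Prdx2*. Capitals mark the match, which reads TGACTCAGC on the opposite strand and begins 133 bases before the RefSeq start.
Prdx1: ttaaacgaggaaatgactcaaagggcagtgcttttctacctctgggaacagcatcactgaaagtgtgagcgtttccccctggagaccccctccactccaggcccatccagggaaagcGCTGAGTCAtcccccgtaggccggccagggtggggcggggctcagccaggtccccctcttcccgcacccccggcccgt
Prdx2: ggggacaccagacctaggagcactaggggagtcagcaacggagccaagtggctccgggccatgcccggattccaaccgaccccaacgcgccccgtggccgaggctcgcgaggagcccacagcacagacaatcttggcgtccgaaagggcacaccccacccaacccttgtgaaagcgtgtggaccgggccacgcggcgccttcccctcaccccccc
A match of these letters is a description of the sequence, and binding was not measured here.

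Library totals ran from 18956748 to 44054836 counts in control eyes and from 32839893 to 49598700 in Best1-Nrf2 eyes, and 18958 genes had enough counts to be tested. In the edgeR test described below, 3.12% of all genes tested were called higher in Best1-Nrf2 eyes and 1.13% lower, and the marker counts given here are of genes so called. All 12 RPE markers listed were detected; 4 of them, *Rpe65*, *Rlbp1*, *Lrat* and *Rdh5*, were called lower and 0 higher. *Best1* itself had a log2 fold change of 0.97 in 9 of 9 mice (edgeR adjusted p = 0.0555). Its level was low, with a mean of 1.46 CPM (counts per 1e6 counts of a library, after TMM scaling) in control eyes. In Best1-Nrf2 eyes the mean was 2.80 CPM. Their summed level was 10717 to 57710 CPM (counts per 1e6 counts of a library, after TMM scaling) in control eyes (median 29018) and 14315 to 72821 in Best1-Nrf2 eyes (median 16998), and it was higher with Best1-Nrf2 in 4 of 9 mice. Markers of other cells also moved between the groups. All 8 cone markers were lower with Best1-Nrf2, with sums of 250 to 2014 CPM in control eyes against 26.8 to 282 CPM, and 2 of 6 rod markers tested were lower. Of 13 macrophage and microglia markers, 8 were called higher and 0 lower, with sums of 139 to 488 CPM in control eyes against 146 to 597 CPM. *Csf1r*, the most abundant of the 13 by mean level, leaned the other way without being called. Its log2 fold change was -0.97, and it was higher in 1 of 9 mice (edgeR adjusted p = 0.113). The control mean of *Csf1r* was 136 CPM, against 59.6 CPM after Best1-Nrf2, so these sums mix opposite movements. The sum of the fibroblast and sclera markers was higher in 8 of 9 mice, and 1 of 7, *Col3a1*, was called higher. The Best1-Nrf2 eye of mouse 6 stood apart with 1258 CPM of inner retina markers, and the control eye of mouse 8 had the smallest library and the lowest RPE marker sum. In bulk RNA, fewer cells of a type and less RNA per cell cannot be told apart. The neural retina had been removed, so photoreceptor and inner retina RNA may also vary with the tissue left on the eyecup. That part was not tested. In *rd1* retinal flat mounts the study reported less disruption of the cone layer with Best1-Nrf2.

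*Nfe2l2*, the mouse gene for Nrf2, was read first as a check of the labels. Its level was 76.7, 83.0 and 134 CPM (lowest, median and highest) in control eyes and 275, 457 and 704 CPM in Best1-Nrf2 eyes, and the groups did not overlap. It was higher in 9 of 9 mice, by 2.29 on the log2 scale (SE 0.21, edgeR adjusted p = 6.21e-05). With the level of photoreceptor markers as a covariate it was 1.86 and missed the threshold (adjusted p = 0.0731). The vector carried the human sequence, and reads of it that were counted under the mouse gene cannot be told apart from the animal's own transcript in these counts.

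*Prdx6* and *Prdx1* rose in Best1-Nrf2 eyes, and no other peroxiredoxin passed the test in either direction. *Prdx6* rose 5.70-fold and *Prdx1* 3.97-fold, each in all 9 mice. *Prdx2*, *Prdx3* and *Prdx5* had fitted changes of 0.04 to 0.25 on the log2 scale, and *Prdx4* lay between with 0.66. The 2 genes called are 2 of 6 members, where 3.12% of all genes tested were called higher (592 of 18958) and 1.13% lower. The median change was 0.45 over the 6 members and -0.03 over all genes tested.

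*Prdx6*, the glutathione-linked member, had the largest change of the 6 in the fit without covariates. Its level was 492.9 CPM at the lowest, 794 at the median and 931 at the highest in control eyes, and 2384, 4249 and 7931 CPM in Best1-Nrf2 eyes. The lowest Best1-Nrf2 eye, that of mouse 3, was above the highest control eye. Between the eyes of the same mouse the difference ran from 3.52-fold in mouse 6 to 9.99-fold in mouse 4. The means were 773 ± 144 and 4738 ± 2089 CPM (SD, n = 9), and the fitted log2 fold change was 2.51 (SE 0.22, 95% interval 2.02 to 3.00, edgeR adjusted p = 5.01e-05).

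*Prdx1*, the main cytosolic thioredoxin-dependent member, followed. Its level was 582, 753 and 1213 CPM (lowest, median and highest) in control eyes and 1506, 3121 and 5823 CPM in Best1-Nrf2 eyes. Again the groups did not overlap, although the margin between the highest control eye (mouse 5) and the lowest Best1-Nrf2 eye (mouse 1) was narrower than for *Prdx6*. Within mice the difference ran from 1.95-fold in mouse 3 to 9.33-fold in mouse 4. The means were 783 ± 208 and 3400 ± 1691 CPM (SD, n = 9), and the log2 fold change was 1.99 (SE 0.25, 95% interval 1.44 to 2.54, edgeR adjusted p = 6.2e-04). Of all genes tested, 1.05% had Best1-Nrf2 and control levels that did not overlap, with Best1-Nrf2 higher, and 3.12% were higher in 9 of 9 mice.

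**Figure D1:**
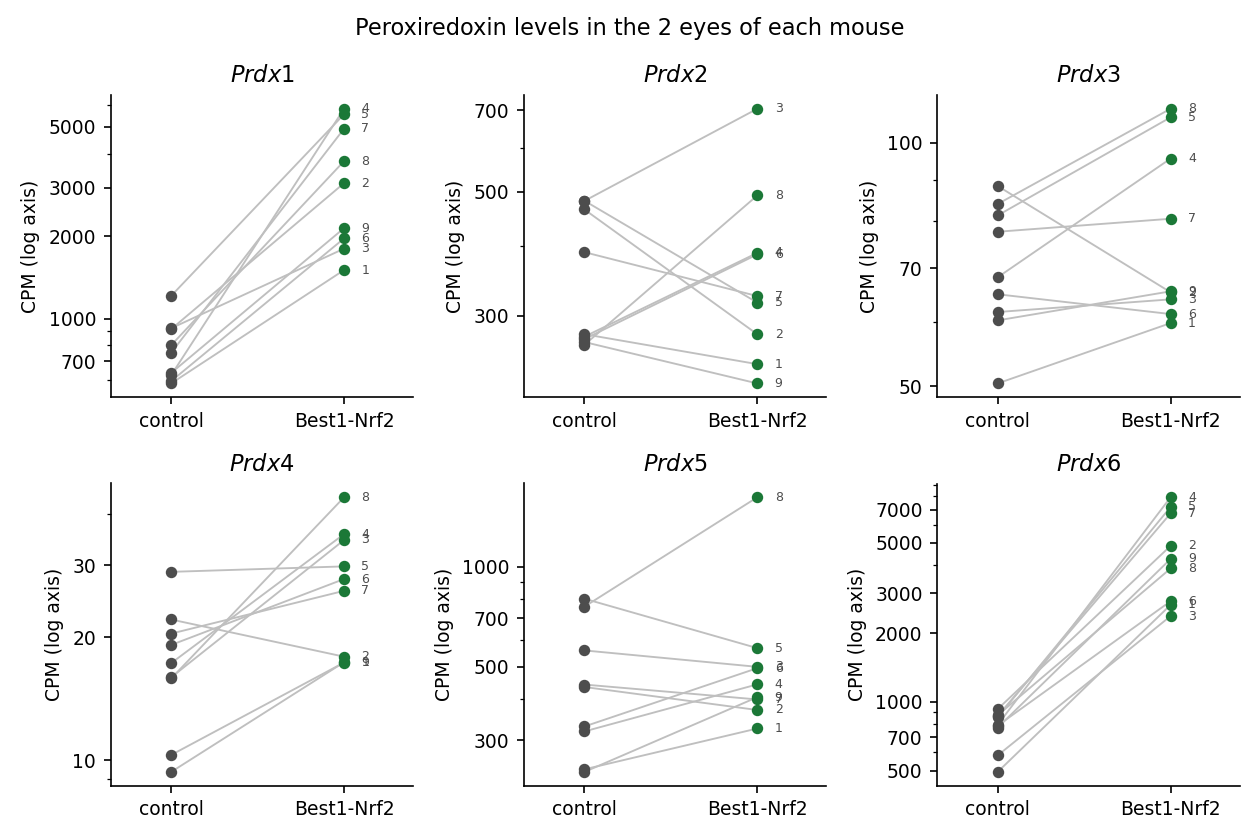
Level of each peroxiredoxin in CPM (log axis with its own range in each panel) in the control eye (grey) and the Best1-Nrf2 eye (green) of 9 mice, with a line joining the eyes of a mouse and the mouse number at the right. All lines rise for *Prdx1* and *Prdx6*, where the groups do not overlap, while those of *Prdx2*, *Prdx3* and *Prdx5* run in both directions and 1 of 9 lines falls for *Prdx4*.

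The levels of RPE, photoreceptor, macrophage and microglia, and red blood cell markers were each added to the fit as a covariate; the part of the other lists was not tested in this way. With the red blood cell level both calls held (2.58 for *Prdx6* and 2.01 for *Prdx1*). With the RPE marker level as a covariate *Prdx6* had a log2 fold change of 2.52 (edgeR adjusted p = 0.00261) and *Prdx1* of 2.25 (adjusted p = 0.00832), in a fit that called 1.66% of all genes higher. With the photoreceptor marker level the estimates were 2.21 for *Prdx6* (adjusted p = 0.0625) and 2.27 for *Prdx1* (adjusted p = 0.0741), so both calls were lost; 0.195% of all genes were called higher there. With the macrophage and microglia level they were 2.86 for *Prdx6* (adjusted p = 0.0769) and 2.19 for *Prdx1* (adjusted p = 0.361), and both were lost again, with 0.2% of all genes called higher. The photoreceptor and macrophage markers differed between the groups themselves, and the number of genes called over the whole table was 53 and 40 with these covariates, against 806 without. Without mice 6 and 8 both genes remained past the threshold, at 2.67 for *Prdx6* and 1.99 for *Prdx1*.

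*Prdx4*, of the endoplasmic reticulum, was the least abundant member and did not pass the test. Its level was 9.37, 17.3 and 28.9 CPM (lowest, median and highest) in control eyes and 17.3, 27.7 and 43.9 CPM in Best1-Nrf2 eyes, and the groups overlapped. It was higher in 8 of 9 mice, with mouse 2 the exception. The log2 fold change was 0.66 (SE 0.19, 95% interval 0.23 to 1.08, edgeR adjusted p = 0.101), and 1.00 with the RPE covariate (adjusted p = 0.0696). The call changed with the method. DESeq2, which called 2.84% of all genes higher, gave 0.66 (adjusted p = 0.0284). It was run without the count filter, so its share is 1020 of 35910 genes, where edgeR called 592 of 18958. The voom fit, which called 4.87% higher, gave 0.63 (adjusted p = 0.0376), and edgeR without mouse 2, which called 2.49% higher, gave 0.78 (adjusted p = 0.0425).

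*Prdx5*, of mitochondria, peroxisomes and cytosol, ranged from 241 to 800 CPM in control eyes (median 434) and from 326 to 1616 CPM in Best1-Nrf2 eyes (median 442). The highest value, in mouse 8, stood alone. The gene was higher in 5 of 9 mice, with a log2 fold change of 0.25 (95% interval -0.18 to 0.68, edgeR adjusted p = 0.708). Without mouse 8 it was 0.15 and without mice 6 and 8 it was 0.08, while it was 0.58 with the photoreceptor covariate and 0.42 with the RPE covariate (adjusted p of 0.511 and 0.481), and 0.08 with the macrophage and microglia covariate. *Prdx5* overlaps its neighbour *Trmt112*, a methyltransferase cofactor, which shares 16.9% of the 31-base words of its transcripts and none of those of its coding sequence. Over all libraries the counts of *Trmt112* came to 11.1% of those of *Prdx5*, and reads in the shared stretch cannot be assigned to either gene. In single libraries the share ran from 6.04 to 24.4% in control eyes and from 5.52 to 28.7% in Best1-Nrf2 eyes.

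*Prdx3*, the mitochondrial member, ran from 50.4 to 88.4 CPM in control eyes (median 68.2) and from 59.8 to 110 CPM in Best1-Nrf2 eyes (median 65.5). It was higher in 7 of 9 mice, and its log2 fold change of 0.14 had the narrowest interval of the family, -0.16 to 0.43 (edgeR adjusted p = 0.79); with the RPE and with the macrophage and microglia covariate it was 0.26. *Prdx2*, the cytosolic relative of *Prdx1*, ran from 266 to 482 CPM in control eyes (median 278) and from 227 to 704 CPM in Best1-Nrf2 eyes (median 325). It was higher in 4 of 9 mice, with a log2 fold change of 0.04 (95% interval -0.40 to 0.49, edgeR adjusted p = 0.969). The estimate for *Prdx2* was 0.73 with the photoreceptor covariate (adjusted p = 0.358) and 0.46 with the RPE covariate (adjusted p = 0.363), so the intervals hold for the fit without covariates, and they do not show that the levels were equal. Each of the 4 genes had control and Best1-Nrf2 eyes with overlapping levels.

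**Figure D2:**
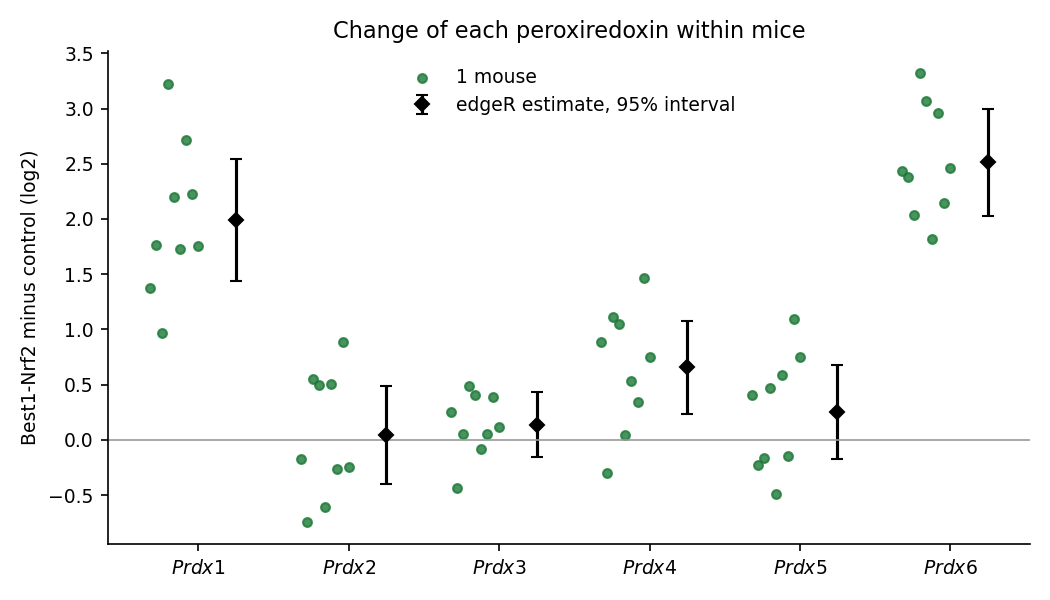
Difference between the Best1-Nrf2 and the control eye on the log2 scale for each peroxiredoxin: green points are the 9 mice, and the black diamond with bars is the edgeR estimate with its 95% interval. The intervals of *Prdx1* (1.44 to 2.54) and *Prdx6* (2.02 to 3.00) lie well above 0, that of *Prdx4* (0.23 to 1.08) lies just above 0 though its adjusted p missed the threshold, and the others span 0.

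The changes of the members were then compared with each other inside each mouse, in 15 pairs by a two-sided exact sign-flip permutation test over 9 mice, with Benjamini-Hochberg adjustment over the 15. *Prdx6* changed more than *Prdx1* by 0.52 ± 0.44 on the log2 scale (SD, n = 9), in 8 of 9 mice (exact p = 0.00781, adjusted p = 0.0117). In the edgeR fit with the photoreceptor covariate the order turned, at 2.21 for *Prdx6* and 2.27 for *Prdx1*. That difference was not tested. *Prdx6* also changed more than *Prdx2*, *Prdx3*, *Prdx4* and *Prdx5*, and *Prdx1* more than *Prdx2*, *Prdx3* and *Prdx5*, in 9 of 9 mice each, by mean differences of 1.74 to 2.47 (exact p = 0.00391 each, the smallest that 9 mice allow, adjusted p = 0.00732). *Prdx1* exceeded *Prdx4* by 1.34 ± 0.89 in 8 of 9 mice (exact test, adjusted p = 0.0117).

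*Prdx4*, although it missed the test between the eyes, changed more than some of the others. It exceeded *Prdx2* in 9 of 9 mice, by 0.61 ± 0.30 (exact test, adjusted p = 0.00732), and *Prdx3* in 8 of 9, by 0.52 ± 0.45 (exact test, adjusted p = 0.0213). Its difference from *Prdx5* was 0.40 ± 0.42 in 7 of 9 mice (exact test, adjusted p = 0.0342), and this call was lost on leaving out any of mice 1, 3, 4, 5, 7 and 8, with adjusted p of 0.0631 to 0.0684. Among *Prdx2*, *Prdx3* and *Prdx5* the mean differences were 0.09 to 0.21 with adjusted p of 0.252 to 0.602 by the exact test. *Prdx5* exceeded *Prdx2* by 0.32 without mouse 3, which passed the exact test (adjusted p = 0.0213), and by 0.11 without mouse 9 (adjusted p = 0.505).

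Levels of different genes were compared per kilobase of the union of annotated exons. In control eyes the order of medians was *Prdx1* (247 CPM per kb), *Prdx5* (203), *Prdx6* (165), *Prdx2* (91.1), *Prdx3* (46.1) and *Prdx4* (8.20). Neighbours in this order differed by an exact sign-flip permutation test (adjusted p of 0.00651 to 0.0391 over 10 tests), except *Prdx5* and *Prdx6* (adjusted p = 0.168). In Best1-Nrf2 eyes *Prdx6* stood beside *Prdx1*: the medians were 1026 for *Prdx1* and 885 for *Prdx6*, which did not differ beyond their spread (adjusted p = 0.168, exact test), followed by *Prdx5* (207), *Prdx2* (107), *Prdx3* (44.3) and *Prdx4* (13.2), each different from the next (adjusted p = 0.00651).

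The order depended on the length used. With the longest transcript of each gene, *Prdx5* and *Prdx2* did not differ beyond their spread in control (adjusted p = 0.613, exact test) or Best1-Nrf2 eyes (adjusted p = 0.171), and neither did *Prdx1* and *Prdx6* (adjusted p = 0.304) or *Prdx6* and *Prdx5* (adjusted p = 0.134) in control eyes, while *Prdx6* was above *Prdx1* in Best1-Nrf2 eyes (adjusted p = 0.013). With the longest coding transcript of each gene, *Prdx5*, *Prdx6* and *Prdx1* had control medians of 344, 333 and 328 CPM per kb; *Prdx5* and *Prdx6* (adjusted p = 0.742, exact test) and *Prdx6* and *Prdx1* (adjusted p = 0.725) did not differ beyond their spread, and in Best1-Nrf2 eyes *Prdx6* was above *Prdx1* at 1780 against 1361 (adjusted p = 0.00977, exact test). *Prdx3* and *Prdx4* were the lowest of the family with every length.

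The make-up of the family shifted accordingly. *Prdx1* held 32.0 ± 2.57% of the summed per-length level in control eyes and 42.1 ± 5.00% in Best1-Nrf2 eyes (SD, n = 9). *Prdx6* went from 20.6 ± 4.38% to 38.4 ± 6.42%, the largest gain. *Prdx5* went from 25.7 to 11.1%, *Prdx2* from 14.5 to 5.59%, *Prdx3* from 6.09 to 2.23% and *Prdx4* from 1.04 to 0.565%. Each shift passed the exact sign-flip permutation test (adjusted p = 0.00469 for 5 members and 0.0117 for *Prdx4*), but the shares add up to the whole, so a smaller share of the other members followed from the gain of *Prdx1* and *Prdx6* and is not a fall in their level. Counts of the 6 genes made up 0.174 to 0.309% of a control library and 0.392 to 1.50% of a Best1-Nrf2 library.

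**Figure D3:**
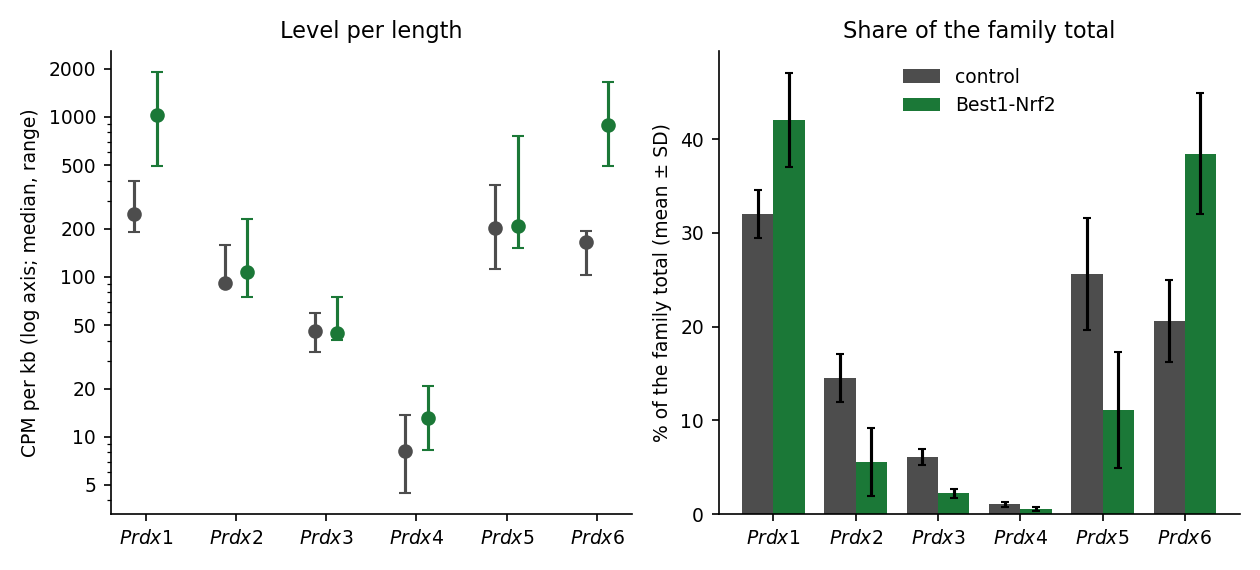
Left, median level of each peroxiredoxin per kilobase of union exon (log axis, CPM per kb) with the range over 9 control (grey) or 9 Best1-Nrf2 eyes (green); right, mean share of the summed level in percent with SD bars. *Prdx6* rises from a median of 165 to 885 CPM per kb and from 20.6 to 38.4% of the family, while *Prdx5* has medians of 203 and 207 CPM per kb and its share goes from 25.7 to 11.1%.

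Across the 9 Best1-Nrf2 eyes, the level of each member was set against that of *Nfe2l2* on the log2 CPM scale, in 6 relations tested by permutation. For *Prdx6* Pearson's r was 0.82 (permutation p = 0.00928, adjusted p = 0.0557) and Spearman's rho was 0.83 (permutation p = 0.00827, adjusted p = 0.0496), so the call depended on the measure. For *Prdx1* r was 0.70 (permutation p = 0.0462, adjusted p = 0.138) and rho 0.73 (permutation p = 0.0311, adjusted p = 0.0934). The eyes with the most *Nfe2l2*, those of mice 4, 7 and 5, also held the 3 highest levels of both genes.

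When the 2 eyes farthest from the median of *Nfe2l2*, those of mice 6 and 8, were left out, r was 0.88 for *Prdx6* (permutation adjusted p = 0.0196) and 0.91 for *Prdx1* (permutation adjusted p = 0.00714). The eye of mouse 8 had the second-lowest level of *Nfe2l2* and the fourth-highest of *Prdx1*. For the other 4 members r ran from -0.36 to 0.35 in all 9 eyes (permutation adjusted p of 0.594 to 0.919). Leaving out the same eyes raised r for these members too, to 0.79 for *Prdx3* (permutation p = 0.0325, adjusted p = 0.0651), 0.62 for *Prdx4*, 0.48 for *Prdx5* and 0.20 for *Prdx2* (permutation adjusted p of 0.206 to 0.646 for these 3). Whether the relation differed between members was not tested. Labels that would tie libraries to a sequencing run were not among the sources used, so no value within runs can be given.

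**Figure D4:**
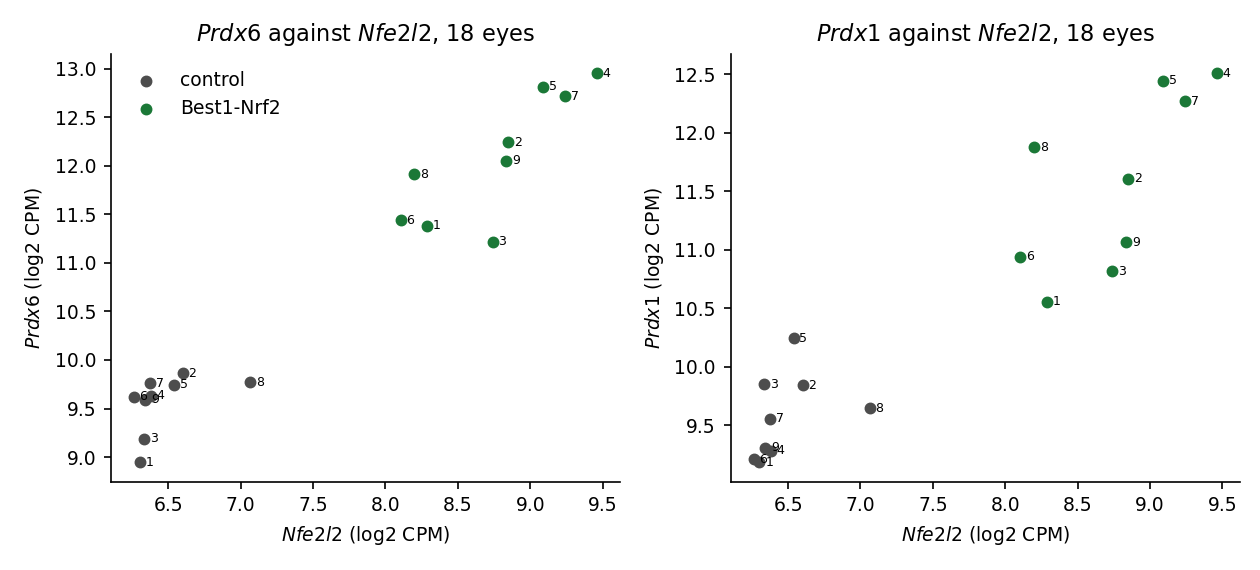
Levels of *Prdx6* (left) and *Prdx1* (right) against *Nfe2l2*, all as log2 CPM, in 9 control (grey) and 9 Best1-Nrf2 eyes (green) with the mouse number beside each point. The groups form separate clouds, and within the green points r was 0.82 for *Prdx6* and 0.70 for *Prdx1*.

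For each member, the genes whose level was most like it over the 18 libraries were named by Pearson's r of log2 CPM among 11809 genes, as a description; the 18 points share their mice and the difference between the groups. For *Prdx6* they were *Adm*, the gene of adrenomedullin (r = 0.986), *Bco1*, of a carotenoid-cleaving enzyme (0.978), and *Gstm1*, of a glutathione S-transferase (0.978). For *Prdx1* they were *Ypel5* (0.988), *Tuba4a*, an alpha-tubulin gene (0.983), and *Esd*, of esterase D (0.982). These 6 genes were all higher in 9 of 9 mice, by 1.00 (*Ypel5*) to 6.26 (*Gstm1*) on the log2 scale. *Prdx1* and *Prdx6* had r = 0.959 with each other.

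The members that did not pass the test had other neighbours. The closest gene was *Selenos* for *Prdx2* (r = 0.957), *Nudt5* for *Prdx3* (0.948), *Itm2b* for *Prdx4* (0.94) and *Akip1* for *Prdx5* (0.98), and none of these 4 passed the test between the eyes. *Cnpy2* and *Suclg1* came next for *Prdx2*, *Bub3* and *Nfkbib* for *Prdx3*, *Psma2* and *Tecr* for *Prdx4*, and *Polr1d* and *Myl12b* for *Prdx5*. *Prdx2*, the cytosolic relative, had r = 0.16 with *Prdx1* and -0.01 with *Prdx6* over the same libraries.

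Peroxiredoxins work with enzymes that reduce or repair them and beside other enzymes that remove peroxides. Of 27 partner genes listed, 8 were of the second kind. Of 26 tested, 5 were higher in Best1-Nrf2 eyes and none was lower, where 3.12% of all genes tested were called higher and 1.13% lower. The median log2 fold change over the 26 was 0.32, against -0.03 over all genes. The list was chosen with earlier results of these data known, so these figures describe it and do not test it against all genes.

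In the thioredoxin arm, which reduces most of the family, 1 of 6 genes rose. *Txnrd1*, the cytosolic thioredoxin reductase, went from 51.1 to 94.4 CPM over control eyes (median 61.9) to 434 to 2113 CPM over Best1-Nrf2 eyes (median 1711), with no overlap and a log2 fold change of 4.08 (SE 0.36, edgeR adjusted p = 4.13e-05). The thioredoxins themselves did not pass the test: *Txn1*, the cytosolic form, had a log2 fold change of 0.44 (adjusted p = 0.539) and *Txn2*, the mitochondrial form, of -0.07 (adjusted p = 0.945). *Txn1* had 1.04 with the photoreceptor covariate (edgeR adjusted p = 0.336) and 0.25 without mice 6 and 8 (adjusted p = 0.664). Among the 4 repair genes *Srxn1*, whose product sulfiredoxin restores over-oxidised peroxiredoxins, had the largest change of all partners. It lay between 14.8 and 51.3 CPM in control eyes (median 34.4) and between 432 and 3053 CPM in Best1-Nrf2 eyes (median 2153), again with no overlap, at a log2 fold change of 5.56 (SE 0.39, edgeR adjusted p = 1.05e-05). *Sesn2*, of the sestrin family, had 0.90 (adjusted p = 0.113).

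In the glutathione arm, 2 of 4 genes rose. *Gstp1*, which encodes the transferase that serves *Prdx6*, ran from 118 to 367 CPM in control eyes (median 172) and from 946 to 3163 CPM in Best1-Nrf2 eyes (median 2647), a log2 fold change of 3.53 (SE 0.27, edgeR adjusted p = 1.66e-05). *Gsr*, the glutathione reductase, ran from 37.6 to 103 CPM and from 112 to 505 CPM in the same order, with no overlap and a log2 fold change of 2.06 (SE 0.25, edgeR adjusted p = 4.07e-04). Neither glutaredoxin gene passed the test.

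None of the 5 genes of disulfide transfer in the endoplasmic reticulum, where *Prdx4* works, passed the test (median log2 fold change 0.11). Of the other peroxide-removing enzymes 1 of 7 tested rose: *Cat*, the catalase gene, with a log2 fold change of 1.15 (SE 0.26, edgeR adjusted p = 0.0252), higher in 9 of 9 mice but with overlapping groups. That call was lost without mouse 2, 4, 5, 7 or 8 (adjusted p of 0.0627 to 0.0813) and without the mouse block (adjusted p = 0.0556). *Gpx4*, the lipid hydroperoxide peroxidase, had 1.23 in 9 of 9 mice (adjusted p = 0.0691), and *Gpx1* had 0.69 (adjusted p = 0.132). DESeq2 called *Gpx4* (adjusted p = 0.00177), *Gpx1* (adjusted p = 0.0307) and *Sesn2* (adjusted p = 0.0229), which the edgeR fit reported here did not; voom also called *Gpx4* (adjusted p = 0.019) and *Sesn2* (adjusted p = 0.0108). In edgeR, *Gpx4* passed with no count filter (adjusted p = 0.0395) and *Sesn2* without mouse 6 (adjusted p = 0.0231), without mice 6 and 8 (adjusted p = 0.0221) and with the red blood cell covariate (adjusted p = 0.00388). The remaining 16 partner genes tested had log2 fold changes of -0.27 to 0.45 with adjusted p of 0.498 to 0.999. Of these, *Txnrd2*, the mitochondrial thioredoxin reductase, passed with the RPE covariate (1.00, adjusted p = 0.0468), where 6 partner genes were called.

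With the photoreceptor marker level as a covariate, *Srxn1* and *Gstp1* alone among the partners passed the test; *Txnrd1* had 2.64 (edgeR adjusted p = 0.0655) and *Gsr* 1.49 (adjusted p = 0.147), while *Gpx4* had 2.77 (adjusted p = 0.0625) and *Gpx1* 1.39 (adjusted p = 0.13). With the macrophage and microglia level the same 2 passed, *Txnrd1* had 4.24 (adjusted p = 0.0913) and *Gsr* 2.19 (adjusted p = 0.303).

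**Figure D5:**
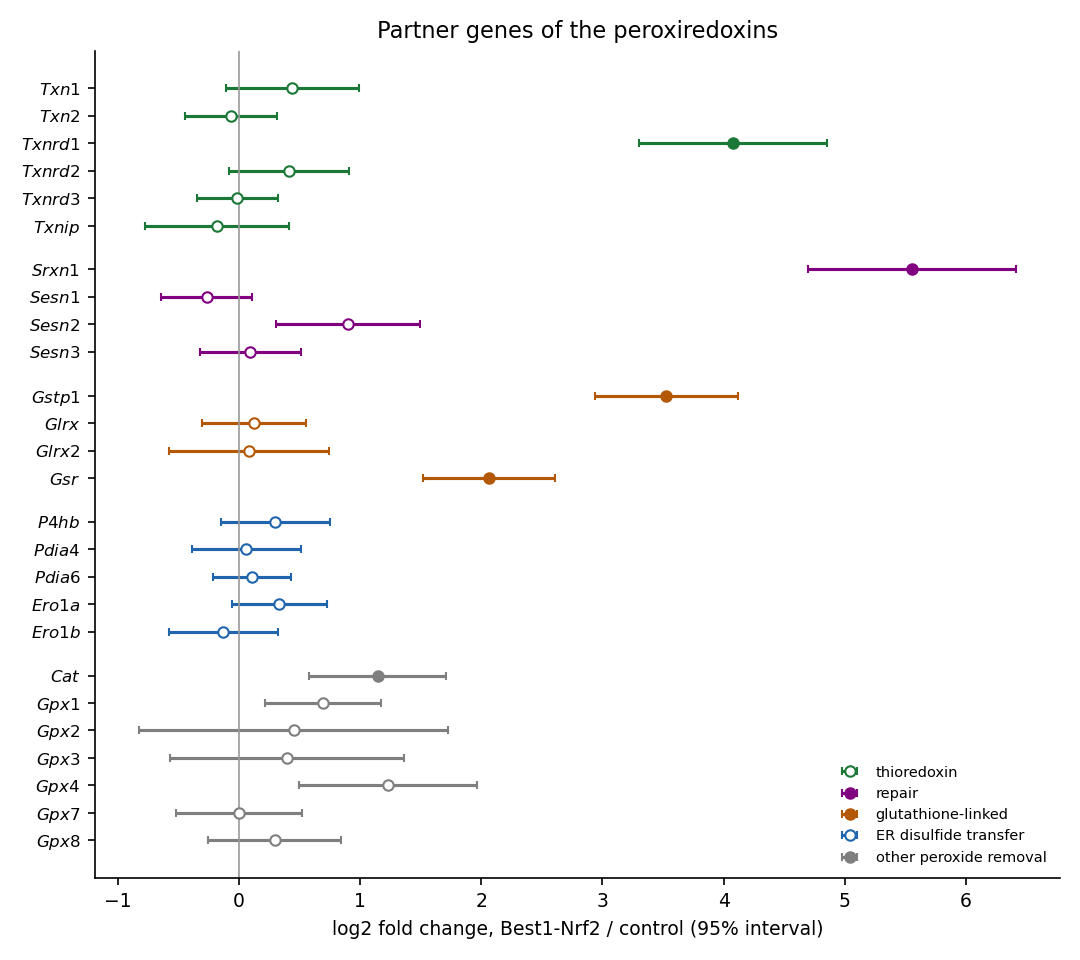
Log2 fold change of 26 partner genes (Best1-Nrf2 over control, 9 mice) with 95% intervals from edgeR, coloured by role; filled points passed an adjusted p of 0.05 over all genes tested. *Srxn1* (5.56), *Txnrd1* (4.08), *Gstp1* (3.53), *Gsr* (2.06) and *Cat* (1.15) are filled, and none of the 5 genes of disulfide transfer in the endoplasmic reticulum (ER) is.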

How the data were processed

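Poly(A) RNA of 18 RPE eyecup libraries (9 mice, paired eyes) had been amplified from low input and sequenced. The deposited table holds whole-number gene counts with no normalization; the submitters' processing notes name FastQC and Salmon 0.8.1, and the study's methods name alignment to mm10, a read counter and Salmon estimates imported per gene. Which of these made the table is not given in the sources used here, so the deposited values were treated as estimated counts that the authors had rounded. Of 47729 gene IDs, 47224 matched a symbol.

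Counts were tested with edgeR 4.0.16 (R 4.3.3): filterByExpr, TMM scaling, quasi-likelihood F test, mouse as a block, and Benjamini-Hochberg adjustment over 18958 genes at a threshold of 0.05. The block followed from the labels, which give each library the number of its animal and state that both eyes of a mouse were used; deviations of paired eyes from their group means had a median correlation of -0.000949 (-0.373 to 0.644), and 2 of 9 treated eyes were closest to their own mouse. Log2 CPM used a prior count of 2, and within-mouse and per-length values were tested by two-sided exact sign-flip tests (Python 3.11.15). Lengths came from GENCODE release M21. Scripts were checked on simulated data.

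The members, partner genes and marker lists were chosen with earlier results of these data known. The named genes were the 6 members, *Nfe2l2*, the partners, and for each member the 3 genes of highest correlation among those whose mean was 2 log2 CPM or more. Partner genes are given with their own values where the unadjusted p was under 0.05, and for *Txn1*, *Txn2* and *Txnrd2*; this choice was made after the values were seen, as were *Trmt112* and *Prdx6b*. Alternatives were no block, RLE and upper-quartile scaling, DESeq2 1.42.0, voom (limma 3.58.1), other count filters, a photoreceptor covariate, other lengths and each mouse left out. Summing with pseudogene copies, 3 more marker covariates and the longest coding transcript length were added after the data were seen. The marker covariate is the mean log2 CPM of its list. No pair of libraries of a group differed as little as sampling noise. Samples were not assigned to sequencing runs in the labels. The labels name *rd1* for all 18 libraries. The study's methods count fewer *rd1* pairs at this age and count pairs of the wild-type CD1 strain, which together come to 9; the strain of each pair was taken from the labels, and all 9 were used.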

Additional observations from a re-analysis of the deposited data

Results flagged for a closer look

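Of 66 groups of 9 libraries screened, 8 held a library whose gap to the nearest of the others, as a share of the group's range, was above Dixon's critical value, where chance gives about 3.3. *Prdx5* in the Best1-Nrf2 eye of mouse 8 was 10.66 log2 CPM, with the next eye at 9.15. *Nfe2l2* in the control eye of mouse 8 was 7.06 log2 CPM, against 6.60 for the next control eye, and it remained below every Best1-Nrf2 eye. In the control eye of mouse 3, *Srxn1* was lowest at 3.89 (next 4.80) and *Txnrd3* at 3.06 (next 3.74). In the Best1-Nrf2 eye of mouse 6, which held the most inner retina marker RNA, *P4hb* was lowest at 7.18 (next 8.01) and *Pdia4* at 6.24 (next 7.18). In the control eye of mouse 8, which had the smallest library, *Gpx3* was lowest at 4.83 (next 7.18) and *Gpx7* at 2.28 (next 3.20).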

How the results depend on the processing

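*Prdx1* and *Prdx6* were called higher under each scaling, tool, count filter and left-out mouse tried, with log2 fold changes of 1.84 to 2.15 for *Prdx1* and 2.41 to 2.61 for *Prdx6* over the left-out mice; without the mouse block (no pairing) they were 2.12 and 2.62 and 742 genes were called in place of 806. DESeq2 called 1627 genes and voom 1426. The number of peroxiredoxins called higher was 0 with the photoreceptor and 0 with the macrophage and microglia covariate, and 2 to 3 over the left-out mice. *Nfe2l2* had 1.86 (adjusted p = 0.0731) with the photoreceptor covariate. Partner genes called were 8 with DESeq2, 2 with the photoreceptor and 2 with the macrophage and microglia covariate, and 4 to 6 over the left-out mice. Direction reversed for *Prdx2* (voom -0.033, left-out mice -0.057 to 0.14, without mice 6 and 8 -0.14, red blood cell covariate -0.045), *Txn2* (photoreceptor covariate 0.64, RPE covariate 0.29, left-out mice -0.16 to 0.030) and *Sesn2* (photoreceptor covariate -0.21). Relations to *Nfe2l2* passing the adjusted Pearson test numbered 0 with all mice and 0 to 2 over the left-out mice: *Prdx6* passed without mouse 3 (r = 0.94) and both *Prdx6* and *Prdx1* without mouse 8 (0.87 and 0.86). The cause of these changes was not tested. Over the left-out mice the difference of *Prdx3* from *Prdx2* ran from -0.022 to 0.18, and r with *Nfe2l2* from -0.29 to 0.053 for *Prdx2*, -0.18 to 0.38 for *Prdx4* and -0.56 to 0.16 for *Prdx5*. Summing genes that share 20% of all their words could not be run, since 0 did. Among the 6 members depth limits *Prdx4* most, with 278 to 834 counts in control eyes.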

Other observations

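Pseudogene copies held few counts beside their parents: *Gm21399* and *Gm7204* had 0.0756% and 0.0376% of the counts of *Prdx1*, and *Tdpx-ps1* had 0.078% of those of *Prdx2*. *Prdx6b*, a copy of *Prdx6*, had 3 to 11 counts per control library and 5 to 69 per Best1-Nrf2 library, higher in 9 of 9 mice (log2 fold change 2.49, edgeR adjusted p = 0.00286). Its counts came to 0.0120 to 0.0391% of those of *Prdx6* in control eyes and 0.00808 to 0.0310% in Best1-Nrf2 eyes, and these ranges overlapped.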
